A study of Homo sapiens with 12 samples.

Results

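The genes described here are 10 that build and remodel actin filaments: the actins ACTB and ACTG1, the bundling gene FSCN1, the severing genes CFL1, CFL2 and GSN, and the monomer-binding genes PFN1, TMSB4X, TMSB10 and CAP1. They are 10 of 20056 protein-coding genes in the RefSeq table, and they were chosen with the peak values of these data known, FSCN1 for its fold and the actins and CFL1 for the strength of their summits. A peak of the MetDiff list belonged to a gene when all its exon blocks lay inside the gene's span, and a MACS2 summit when its base did. By this rule the 10 genes held 12 of 9585 MetDiff peaks and 34 of 3705 MACS2 summits.

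The experiment asked which mRNAs may carry 1-methylguanosine (m1G), using PANC-1, a cell line established from pancreatic ductal adenocarcinoma. Fragments of polyadenylated RNA were precipitated with an antibody against m1G, or kept as input. The 12 libraries are 3 each of m1G IP after TRMT5 knockdown, input after TRMT5 knockdown, m1G IP of control cells and input of control cells. The knockdown used siRNA for 4 days, and TRMT5 is the methyltransferase that places m1G beside the anticodon of tRNAs. Both deposited files are peak lists of the whole series, with no value for a single library and no column labelled as knockdown against control. The depletion of TRMT5, replicate error and any effect of the knockdown on the actin genes could therefore not be measured, and the depth of the libraries is unknown. All folds, false discovery rates (FDR) and −log10 q values below are the authors' values per peak. The fold was taken to be IP over input, which no header states, and another contrast would give it another meaning.

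Actin monomers assemble into polar filaments that push the cell front forward and pull on adhesions. Profilin and the beta-thymosins hold the pool of free monomers, cofilin and gelsolin cut filaments, cyclase-associated protein recycles the monomers that are set free, and fascin ties parallel filaments into the stiff bundles of filopodia and invasive protrusions. In carcinoma cells this machinery is best known for its part in migration and invasion.

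MetDiff peaks were found in 5 of the 10 genes (ACTB, FSCN1, CFL1, GSN and PFN1), where 21.3% of all protein-coding genes had such a peak. MACS2 summits were found in 9 of the 10, all but CFL2, where 9.45% of all protein-coding genes had a summit. The 5 genes with a MetDiff peak all had a summit as well, where 8.07% of protein-coding genes had both. The genes were chosen from these lists, so nothing is read from these counts. The median fold of the 12 peaks was 4.06, against 4.5 over the whole list, and 6 of them lay above that list median. The median −log10 q of the 34 summits was 31.8, against 13.7 over all summits, and 27 lay above that list median. Of the 100 strongest summits 6 lay in these genes, and 2 of their peaks were among the 100 highest folds. Fold and −log10 q were part of what chose the genes, so these values only describe them.

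**Figure D1:**
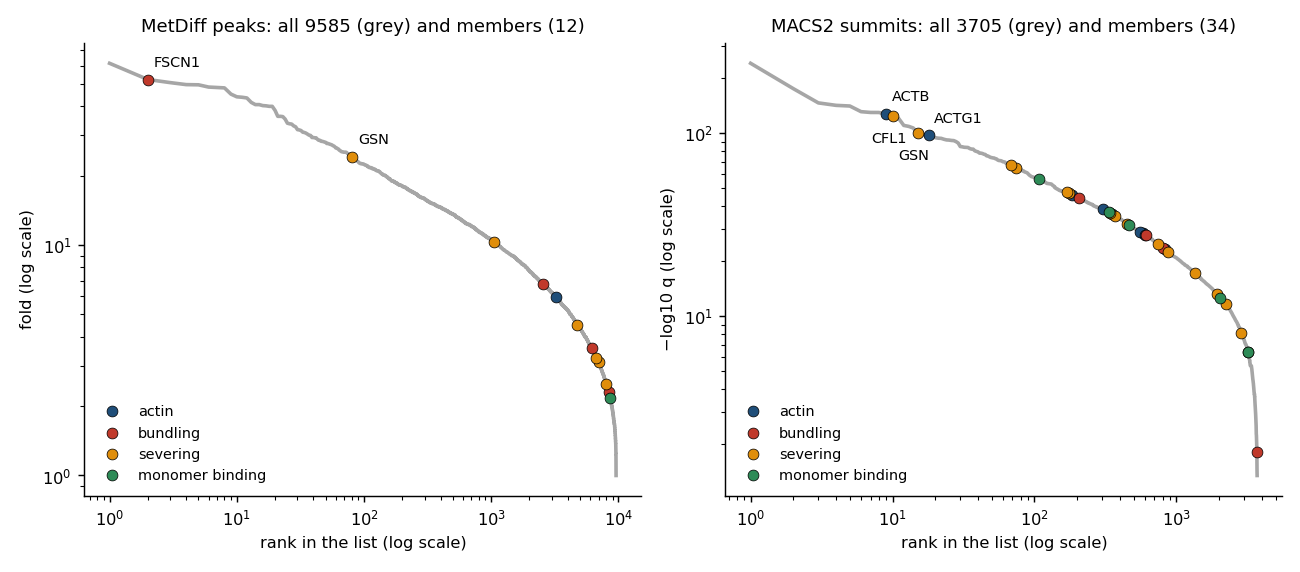
All 9585 MetDiff peaks by fold (left) and all 3705 MACS2 summits by −log10 q (right) in order of rank (grey lines, all axes on log scales), with the peaks and summits of the 10 genes as points coloured by role. FSCN1 stood at rank 2 by fold, ACTB and CFL1 at ranks 9 and 10 by −log10 q, and 6 of 12 peaks and 27 of 34 summits lay above the median of their list.

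The 2 cytoplasmic actins, whose proteins are nearly identical, each had their strongest summit nearest the 5′ end and differed in the MetDiff list. ACTB (chromosome 7, 5527148 to 5530601, minus strand) had its strongest summit at position 5529441, with −log10 q of 127, which was rank 9 of the list. The other 4 ACTB summits, at 5528576, 5528336, 5528243 and 5527721, had −log10 q of 38.4, 29.0, 23.4 and 28.5 and belonged to a single MACS2 peak. Only 8 of 3456 MACS2 peaks held 4 or more summits. ACTG1 (chromosome 17, 81509971 to 81512799, minus strand) had its strongest summit at 81512208, with 97.3 and rank 18. Its other 3 summits, at 81511581, 81511081 and 81510453, had 27.9, 46.3 and 36.3 and also shared a single MACS2 peak. In both genes a lone summit towards the 5′ end was followed by a run of weaker ones towards the 3′ end. The lone summit lay 2293 bases from the annotated 3′ end in ACTB and 2237 in ACTG1, introns included, a difference of 56 bases. From the annotated 5′ end it lay 1160 bases in ACTB and 591 in ACTG1, so the distances were close from the 3′ end only. Both ends were compared after the positions were seen, so nothing is read from this closeness.

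ACTB had 1 MetDiff peak, at 5529185 to 5529432, where the fold was 5.94 (FDR 6.03e-05). A fold at least as high was held by 33.9% of the list, so the strongest summit among the 10 genes went with a fold in the upper part of the middle range. ACTG1 had 0 MetDiff peaks. A missing MetDiff peak was not usual among genes with strong summits: of the 100 protein-coding genes with the strongest summits, 9 had none, and of all 1896 genes with a summit, 85.3% had a MetDiff peak. Reads can be shared between the actins and their processed pseudogenes, so how they were divided between ACTB, ACTG1 and the copies is uncertain. RefSeq lists 14 pseudogenes named after ACTB and 21 named after ACTG1. Of these 35, none held a MetDiff peak, and a single one, ACTBP2, held a summit (chromosome 5, position 77784920, −log10 q of 24.8). ACTBP2 was singled out after its value was seen. The share of all RefSeq pseudogenes with a peak or summit was not counted, so these counts do not show where shared reads went.

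FSCN1 encodes fascin. It lies on the plus strand of chromosome 7 (5592816 to 5606655), 62214 bases from ACTB, and no peak or summit lay between these neighbours. Its MetDiff peak with the highest fold, 52.3 (FDR 2.57e-07), covered the first 101 bases of the annotated gene, 5592816 to 5592916. This was the highest fold of any protein-coding gene, rank 2 of all peaks, and the next gene in that order was HTRA1, which encodes a secreted serine protease, with 50.7. The fold dropped along the gene. The peak at 5593066 to 5593316 had a fold of 6.76 (FDR 0.000316), and the one at 5593666 to 5593894, of 2 blocks, had 3.59 (FDR 0.00245). The peak near the 3′ end, at 5605955 to 5606105, had 2.30 (FDR 0.000355), a value reached by 87.6% of the list. The median fold of the 4 peaks was thus 5.18, and 1 window at the 5′ end set the gene's place in the list. Among 1245 gene IDs with 3 or more MetDiff peaks, the most 5′ peak had the highest fold in 415 (33.3%) and the most 3′ peak in 308 (24.7%).

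The summits of FSCN1 were of moderate strength. They had −log10 q of 44.2 at 5592953, 23.7 at 5603170, 27.7 at 5605920 and 1.82 at 5606356. The strongest was rank 207 of the list and lay near the 5′ end, 37 bases after the first MetDiff peak and 113 bases before the next. The last was close to the lowest value in the list, 1.35. The summit at 5603170 had no MetDiff block within 150 bases.

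Among the severing genes, CFL1 and GSN had very strong summits. CFL2 had nothing in either list, as was so for 15512 of 20056 protein-coding genes, and may still be expressed. CFL1 encodes cofilin-1, the main non-muscle cofilin, and CFL2 (chromosome 14, 34709113 to 34714593, minus strand) encodes the muscle isoform. CFL1 (chromosome 11, 65854673 to 65858180, minus strand) had a summit at 65856231 with −log10 q of 124, rank 10 of the list and next below ACTB, and a weaker one at 65855436 with 11.7. Its only MetDiff peak, at 65856037 to 65856236, had a fold of 4.52 (FDR 1.91e-05), close to the median of the list. Among protein-coding genes, VWA1, which encodes an extracellular matrix protein, stood directly above ACTB with 131, and CFL1 directly below. CFL1 has processed pseudogenes too, and none of the 8 in the RefSeq table held a peak or summit. Whether reads were shared with them was not tested.

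GSN encodes gelsolin, which severs and caps filaments in response to calcium. It accounted for 14 of the 34 summits (41.2%) and 5 of the 12 MetDiff peaks. Only 10 protein-coding genes, GSN included, had 14 or more summits. All of its peaks and summits lay in the last 32913 bases of a span of 131360 (chromosome 9, 121201483 to 121332842, plus strand), with none in the 98447 bases before them. GSN has several annotated starts, and the long 5′ part of the span belongs to the more distal ones. Which starts were used in these cells was not tested.

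The highest fold of GSN was again in its most 5′ peak. That peak joined 5 exon blocks between 121299930 and 121308412, with 549 exonic bases, a fold of 24.2 and an FDR of 1.12e-06. Only 31 MetDiff peaks had 5 or more blocks, and the fold was rank 81. The peaks at 121310705 to 121310805, 121312350 to 121312550 and 121327362 to 121328932 had folds of 2.49, 3.10 and 3.25. The last, at 121329231 to 121331453, had a fold of 10.3 (FDR 9.12e-06). The folds of GSN were therefore high at both ends of its marked region and low in between, with a median of 3.25. Together the 5 peaks covered 1203 exonic bases, a length reached by 108 protein-coding genes, GSN included.

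The strength of GSN summits followed another course. The strongest, with −log10 q of 100.1, lay at 121301885 inside the outer limits of the first peak. The next were the last summit, at 121332448 near the 3′ end, with 66.7, and the one at 121310619 with 64.8, beside a MetDiff peak of low fold. The summits at 121327276, 121302829, 121331268, 121328784 and 121312280 had 47.6, 47.1, 36.9, 35.4 and 32.0. The other 6 lay between 6.42 and 24.8, and 5 of these had no block within 150 bases. No relation of fold and −log10 q was computed within this gene. Across the 1618 protein-coding genes with both, the highest fold and the strongest summit were only loosely related, with a Spearman rank correlation of 0.104. This is a description across genes, which are not replicates.

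**Figure D2:**
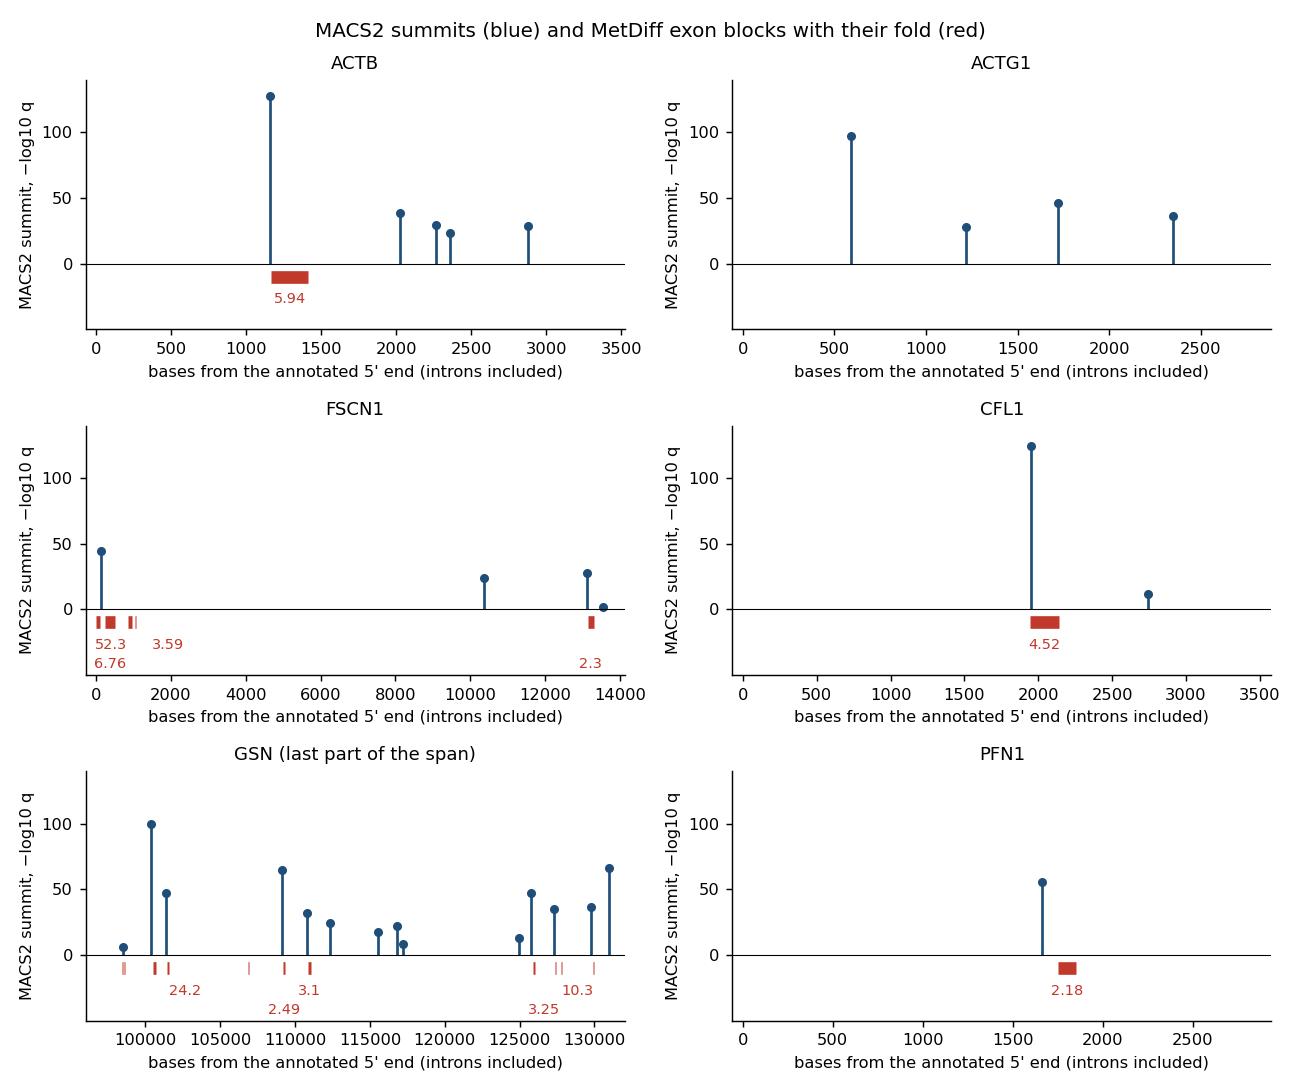
MACS2 summits (blue stems, height as −log10 q) and MetDiff exon blocks (red bars, with the fold of the peak written below) against bases from the annotated 5′ end of 6 genes, introns included. ACTB and ACTG1 share a strong summit followed by weaker ones, the fold of FSCN1 is highest (52.3) at base 0, and in ACTB, CFL1, GSN and PFN1 most blocks lie just to the right, the 3′ side, of a summit.

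The monomer-binding genes had weaker summits than the actins, CFL1 and GSN, and a MetDiff peak in PFN1 alone. PFN1 encodes profilin-1, which exchanges the nucleotide of free actin and delivers it to growing filament ends. PFN1 (chromosome 17, 4945652 to 4948530, minus strand) had a summit at 4946868 with −log10 q of 55.9 and a MetDiff peak at 4946679 to 4946779 with a fold of 2.18 (FDR 2.69e-05). That was the lowest fold of the 12, reached by 89.8% of the list, although the summit was rank 108. TMSB10 and TMSB4X encode thymosins beta-10 and beta-4, small peptides that sequester actin monomers. TMSB10 (chromosome 2, 84905656 to 84906671, plus strand) had summits at 84905863 and 84906351 with 31.7 and 37.3, and TMSB4X (chromosome X, 12975110 to 12977223, plus strand) had 1 at 12976976 with 6.34. A lncRNA gene, LOC105374836, also spans both TMSB10 summits. The last summit lay 320 bases before the annotated 3′ end in TMSB10, and the only TMSB4X summit 247 bases before it. CAP1 (chromosome 1, 40040240 to 40072648, plus strand), which encodes cyclase-associated protein 1, had 1 summit at 40059268 with 12.7. TMSB10, TMSB4X and CAP1 had 0 MetDiff peaks. With ACTG1 they were 4 of 9 genes with a summit and no MetDiff peak, where 278 of 1896 protein-coding genes with a summit lacked one. RefSeq also lists pseudogenes named after PFN1 (10), TMSB4X (8), TMSB10 (2) and CAP1 (2), none with a peak or summit. Whether reads were shared with these copies was not tested.

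**Figure D3:**
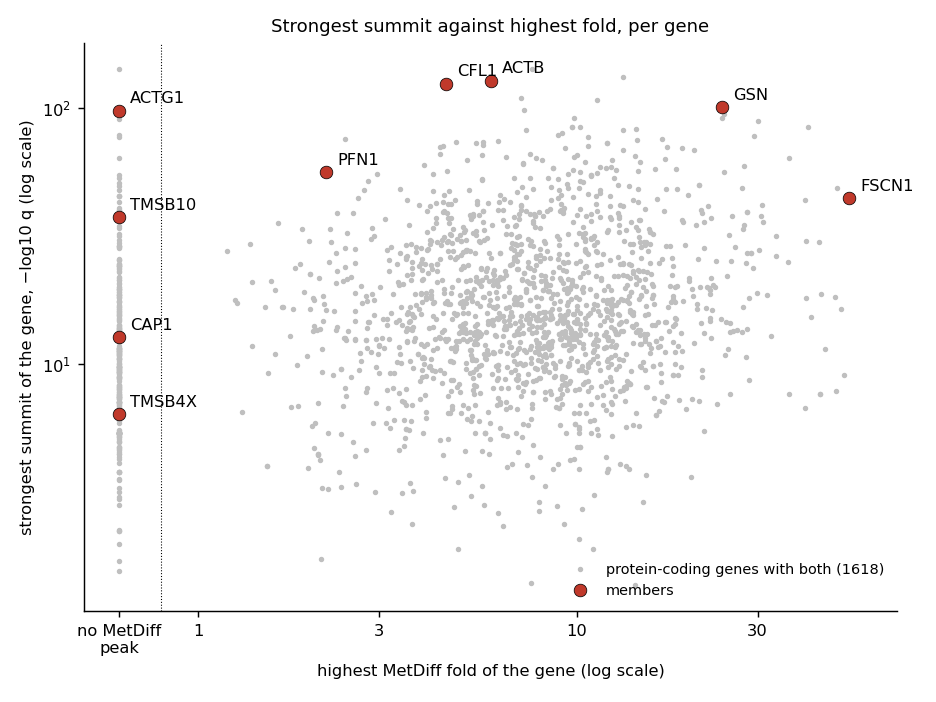
Strongest summit of each gene (−log10 q) against its highest MetDiff fold, both on log scales, for the 1618 protein-coding genes with both (grey) and, left of the dotted line, the 278 with a summit and no MetDiff peak; 9 of the 10 actin genes are red. ACTB, CFL1 and PFN1 had strong summits at folds of 5.94, 4.52 and 2.18, FSCN1 had the highest fold at a summit of 44.2, and GSN was high in both.

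A further PFN1 summit lay just outside the gene and so was not counted among the 34. It stood at 4948540, with −log10 q of 22.7, which is 10 bases before the annotated start at 4948530. The 250 bases before that start are shown (RefSeq, GRCh38.p14, chr17:4948531-4948780, minus strand, 5′ to 3′), because the summit base falls in sequence that the annotation does not place in the transcript. Capitals mark the 11 bases centred on the summit.
PFN1: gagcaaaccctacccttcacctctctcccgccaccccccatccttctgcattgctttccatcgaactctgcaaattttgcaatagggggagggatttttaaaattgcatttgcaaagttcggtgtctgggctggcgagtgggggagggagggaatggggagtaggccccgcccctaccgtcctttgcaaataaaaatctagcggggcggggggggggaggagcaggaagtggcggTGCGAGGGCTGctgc
The stretch was 58.0% G or C, equal to the median of the 35116 promoter windows of the table. Of all 3705 summits, 337 (9.10%) lay in a RefSeq promoter window, each of which also takes in the first 50 bases of its gene. PFN1 was the only one of the 10 genes with a summit in such a window, with windows at hand for 8 of them.

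Most summits of the actin genes lay away from any MetDiff block, and most of those near a block lay on its 5′ side. Of the 34 summits, 21 (61.8%) were over 150 bases from a block, against 36.4% of all summits. ACTG1, TMSB10, TMSB4X and CAP1, without a MetDiff peak, held 8 of the 21. Another 13 of the 34 lay within 150 bases, 2 of them inside a block, against 655 of all 3705 summits (17.7%) inside a block. Of the 13, 11 lay on the 5′ side of the block's midpoint. The median position over all 13 was 136 bases to the 5′ side of the midpoint. The strongest summits of ACTB and PFN1 lay 9 and 89 bases before the 5′ edge of their block. That of CFL1 lay inside its block, 94.5 bases to the 5′ side of the midpoint. The 2 exceptions were the FSCN1 summit at 5592953 and the GSN summit at 121299980, both near the most 5′ peak of their gene.

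The same order held over the whole list. Of 2358 summits within 150 bases of a block, 2054 (87.1%) lay on the 5′ side of its midpoint. The median position over all 2358 was 106 bases to the 5′ side of the midpoint, with quartiles of 131 and 62.5 bases to that side. The median was 105 bases for genes on the plus strand and 106 on the minus strand, so the direction turned with the gene. Moving every summit by 106 bases to the 3′ side placed 1875 of 3705 inside a block (50.6%), among them 11 of the 34 in the actin genes. The same move to the 5′ side placed 266 (7.18%) and 1 of the 34. These distances were chosen after the data were seen, and the settings with which the authors' tools placed summits are not stated in the sources used here.

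In GSN, 4 summits lay between blocks of the same MetDiff peak. The bases skipped there were taken as introns, without exon annotation, and which list lies nearer the enriched site was not tested. The strongest, at 121301885, lay 78 bases before a block and 1759 bases after the preceding one. Those at 121302829, 121328784 and 121331268 lay 82, 69 and 120 bases before the next block. Over the whole list, 432 summits lay in such gaps of over 300 bases within 150 bases of a block, and 429 of them (99.3%) were nearer to the block on the 3′ side, at a median of 82 bases. A GSN summit thus need not lie at the position where the MetDiff list places the enriched exon. The PFN1 summit before the annotated start has no block nearby, so no such distance could be measured for it.

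**Figure D4:**
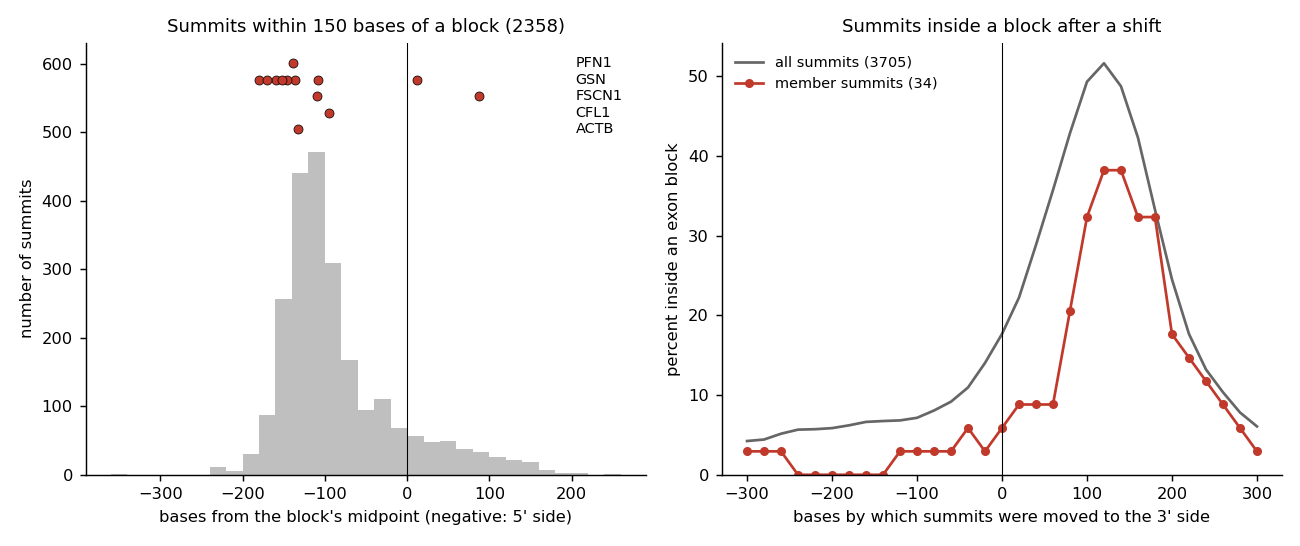
Left, number of summits by their distance in bases from the midpoint of the nearest exon block (grey bars, negative on the 5′ side), with the 13 summits of 5 actin genes as red points in rows; 11 of them lie below 0. Right, percent of all 3705 summits (grey) and of the 34 in the actin genes (red) that fall inside a block after a move towards the 3′ side; both curves are highest at shifts of 120 bases and the red one equally at 140.

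Of 83 other genes of the actin cytoskeleton, from 7 gene lists, 38 had a MetDiff peak (45.8%, against 21.3% of all protein-coding genes). A summit was found in 19 (22.9%, against 9.45%). All 19 also had a MetDiff peak, as did 85.3% of all protein-coding genes with a summit. The gene lists were chosen with earlier results of these data known, and expression was not measured, so nothing is read from these shares. More genes had a MetDiff peak than a summit among these 83 and among all protein-coding genes. Of the 5 muscle and other actin isoforms (ACTA1, ACTA2, ACTC1, ACTG2 and ACTBL2), 0 had either. Neither was also found in 15512 of all 20056 protein-coding genes, so nothing is read from this absence. Of 9 other bundling and crosslinking genes 3 had both, the alpha-actinins ACTN4 (fold 6.22, −log10 q 42.9) and ACTN1 (5.32, 38.3) and the plastin PLS3 (1.83, 9.91). ACTN4 held 13 summits, close to the 14 of GSN.

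Of 14 other severing and capping genes, 6 had a MetDiff peak and 4 had a summit. CAPG, a capping protein of the gelsolin family, had a fold of 24.4 and a summit of 55.9, beside 24.2 and 100.1 in GSN. TWF2, a twinfilin, had a fold of 8.33 without a summit, and the capping protein subunit CAPZB a summit of 21.4. Of 6 other monomer-binding genes 2 had a MetDiff peak, PFN2 (4.01) and CAP2 (2.61), and 0 a summit. PFN2 and CAP2 are paralogs of PFN1 and CAP1, and CAP2 had a MetDiff peak where CAP1 had a summit alone.

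Among 30 nucleation and elongation genes, MetDiff peaks were found in 16 and summits in 7. The formins DIAPH1 and FMNL1 had the highest folds, 14.1 and 10.4, and cortactin (CTTN) and the Arp2/3 subunit gene ACTR2 the strongest summits, 33.2 and 23.9. Of 16 regulators of cofilin, 9 had a MetDiff peak and 4 a summit, led by the cofilin phosphatase gene PDXP (13.2) by fold and by RHOA (27.5) and PAK4 (8.85) by summit. Of SRF and its actin-controlled coactivators MRTFA and MRTFB, which drive transcription of many actin genes, SRF had a fold of 12.0 and a summit of 10.3, MRTFA a fold of 7.0 and MRTFB neither. The strongest summit of any of the 83 genes, 55.9 in CAPG, was below those of ACTB, CFL1, GSN and ACTG1. The actins and CFL1 were chosen for the strength of their summits, so nothing is read from this order.

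**Figure D5:**
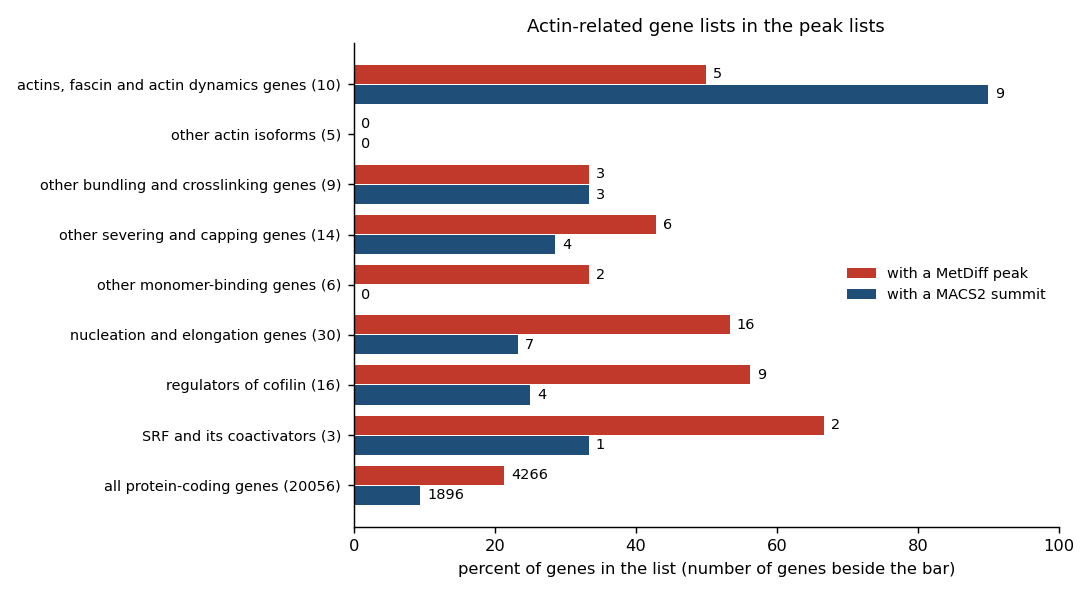
Percent of genes with a MetDiff peak (red) and with a MACS2 summit (blue) in the 10 genes, in 7 lists of other actin genes and in all protein-coding genes, with the number of genes beside each bar and the size of the list in its label. The 10 genes, chosen from these lists, are the only group with more genes in the MACS2 list (9) than in the MetDiff list (5).

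Of 6 epithelial and mesenchymal markers, 4 (VIM, KRT8, KRT18 and KRT19) had a peak in at least 1 list, while KRT7 and EPCAM had none. Of all 20056 protein-coding genes, 15512 had none in either list. Of 12 markers of acinar, islet, immune, endothelial, stromal and muscle cells, COL1A1 alone had any. COL1A1 held 5 MetDiff peaks (highest fold 3.21) and 1 summit (−log10 q of 9.21). These lists record peaks and not expression, so a gene without a peak may still be expressed. The counts are therefore no check of cell identity.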

How the data were processed

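Both deposited files are peak lists of the whole series without headers, and their units were read from layout and values. The deposited MACS2 list gives 1-base summits with −log10 of a q-value. The deposited MetDiff list gives exon blocks with a p-value, the log10 of an FDR, and a ratio taken as fold. STAR 2.7.1, MACS2 2.2.5 and the build GRCh38 are named in the submitters' processing notes. Which libraries entered, and whether replicates were pooled, is not stated there.

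Coordinates were turned to 1-based positions. Genes were placed by their RefSeq spans (GRCh38.p14), without exon annotation. Strand came from the MetDiff list or the RefSeq promoter table. Summits, blocks and their distances were counted in Python 3.11.15 with pandas 2.3.3, by code tested on simulated peaks. The members and gene lists were chosen with earlier results of these data known, so no test was made. The text names all members and, of each related list, the 2 genes with the highest fold and the 2 with the strongest summit where there were as many, except that 1 of them is not reported here. Alternatives covered the peak thresholds, the placement of peaks in genes and the distance that counts as shared.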

Additional observations from a re-analysis of the deposited data

How the results depend on the processing

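No paired analysis was possible because the lists hold no value per library, and for the same reason no replicate could be left out. Of 27 alternatives, 18 left a count within 1.5 times of its value in the report. The other 9 are given here, 5 counts that moved further and 4 medians. The ratio was not applied to medians, which are given because they differed at all. The genes with a MetDiff peak stayed at 5 and those with a summit at 8 or 9, under stricter thresholds (FDR of 0.01 or 0.001, −log10 q of 5 or 10), wider spans or sole genes. The number of summits that share a MetDiff peak depended on the distance allowed: 2 of 34 inside a block became 5 within 50 bases, 13 within 150 bases and 6 inside the outer limits of a peak. Moving summits by 106 bases gave 11 on the 3′ side and 1 on the 5′ side. The median fold of 4.06 over peaks was 5.94 with the highest peak of each gene and 4.52 with its median peak. The median −log10 q of 31.8 over summits was 55.9 with the strongest summit of each gene and 33.7 with its median summit. No comparison of knockdown with control was made.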
